A study of Mus musculus with 5 samples.

Results

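The Zic genes Zic1, Zic2, Zic4 and Zic5 were followed through single cells of the embryonic mouse cerebellum. They are 4 of the 15971 genes in the deposited expression table and were chosen as a gene family. Their rows were read in all 6987 cells of 5 libraries, with cells sorted by whether Sox2, Atoh1, Barhl1, Eomes, Lmx1a and Mapt were detected. Levels are given as CPM, a gene's count of unique molecular identifiers (UMIs) in a cell scaled to a cell total of 1000000 UMIs.

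Zic proteins are transcription factors whose zinc fingers are related to those of the GLI factors of hedgehog signalling. In the dorsal neural tube and cerebellum they are known to keep progenitors dividing and to hold back differentiation, and Zic1 stays on in cerebellar granule neurons. Joint loss of Zic1 and Zic4 is linked to a small, malformed cerebellum (Dandy-Walker malformation). Loss of Zic2 is linked to holoprosencephaly, a failure of the forebrain to divide, and Zic5 is known for roles in neural tube closure and neural crest. The rhombic lip is the dorsal germinal zone from which the glutamatergic neurons of the cerebellum arise, among them granule neurons and unipolar brush cells.

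Each of the 5 libraries was made from single cells of developing cerebellum with droplet-based (10x Genomics) 3′ chemistry. By their titles, which add UT to the RL names without saying what it stands for, 2 libraries were RL at e13, 2 were RL at e14 and 1 was EomesCreER at e16, where e gives the embryonic day. The labels name no strain, genotype or driven allele beyond that title, no sort, and no animals per library. The p-values below therefore measure the spread between libraries, which may be technical. For comparisons of gates it is the spread of the difference within a library. The age tag of RL e13 replicate 2 reads e14, against its title. In the cell names 1 batch matched no title and was taken as the e16 library because it was the only one left.

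All 4 members lie in head-to-head pairs (mouse build mm10, GENCODE M21 genes). Zic1 (ENSMUSG00000032368) spans chr9:91358058-91365810 on the minus strand and Zic4 (ENSMUSG00000036972) spans chr9:91362413-91389348 on the plus strand. Their annotated spans overlap by 3398 bp, at the 5′ side of each. Zic5 (ENSMUSG00000041703) spans chr14:122456795-122465677 on the minus strand and Zic2 (ENSMUSG00000061524) spans chr14:122475435-122479852 on the plus strand, with 9757 bp between them. No source used here says how the authors' counting treated strand, so reads from the shared stretch of Zic1 and Zic4 could be split uncertainly.

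The promoter windows below are shown because Zic1 and Zic4 were called in the same direction in 4 of the 6 gate comparisons below and their RefSeq starts lie 3204 bp apart. Zic1 and Zic5, on different chromosomes, were called alike as often, so shared calls were not particular to neighbouring genes. Shared control was not tested. Each holds 250 bases before and 50 after the RefSeq start (GRCm38.p6), printed 5′ to 3′ on the gene's own strand. Capitals mark matches to the motifs searched, on either strand. Of the 4 members 3 had a window, and Zic2 is named only. The Zic4 window lies inside the GENCODE span of Zic4, downstream of that span's start at chr9:91362413. The overlap of Zic1 and Zic4 given above rests on the GENCODE start of Zic4, not on its RefSeq start. The sequence at that GENCODE start was not searched. The Zic1 window is chr9:91365719-91366018 (minus strand), the Zic4 window is chr9:91368722-91369021 (plus strand) and the Zic5 window is chr14:122465609-122465908 (minus strand).
Zic1: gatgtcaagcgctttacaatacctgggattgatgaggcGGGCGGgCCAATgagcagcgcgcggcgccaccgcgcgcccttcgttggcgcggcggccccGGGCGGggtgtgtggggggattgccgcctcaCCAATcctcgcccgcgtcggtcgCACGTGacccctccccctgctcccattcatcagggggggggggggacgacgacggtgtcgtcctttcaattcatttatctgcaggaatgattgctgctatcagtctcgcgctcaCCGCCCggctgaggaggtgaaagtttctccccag
Zic4: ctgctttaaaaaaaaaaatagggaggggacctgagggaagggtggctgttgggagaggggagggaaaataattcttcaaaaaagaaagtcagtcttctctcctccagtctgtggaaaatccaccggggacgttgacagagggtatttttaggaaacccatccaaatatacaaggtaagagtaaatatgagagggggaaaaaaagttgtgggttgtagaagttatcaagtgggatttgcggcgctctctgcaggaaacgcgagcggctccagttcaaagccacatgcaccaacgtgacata
Zic5: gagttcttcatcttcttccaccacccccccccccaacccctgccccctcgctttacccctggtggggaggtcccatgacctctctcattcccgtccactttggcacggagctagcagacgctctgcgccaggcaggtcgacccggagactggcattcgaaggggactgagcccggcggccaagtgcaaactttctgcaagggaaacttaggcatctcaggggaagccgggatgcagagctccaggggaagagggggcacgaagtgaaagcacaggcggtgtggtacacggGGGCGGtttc

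Each motif was searched on both strands, and no motif's letters lie within another's. The letters CCAAT stood for the box named after them, found in many promoters and bound by NF-Y. The GC box, bound by SP1 and related zinc finger factors, was searched by the letters GGGCGG. An E-box, the site of basic helix-loop-helix factors, was searched in a first form with the letters CACGTG. Its other form, of the kind that Atoh1 and related factors can bind, had the letters CAGCTG. The TATA box, where the basal transcription machinery is placed, was searched by the letters TATAAA. For the GLI factors the searched letters, the core of their known site, were GGGTGGTC. The Zic1 window held 2 CCAAT boxes, 3 GC boxes and 1 E-box of the first form, and 65.3% of its bases were G or C. The Zic4 window held none of the motifs at 46.0% G or C. The Zic5 window held 1 GC box at 62.7% G or C. Over the 32544 RefSeq windows of that length the median was 53.0% G or C, and 37.4% held a CCAAT box, 35.9% a GC box, 7.17% the first E-box, 16.4% the other E-box, 13.6% a TATA box and 0.805% the GLI-type letters. No match says only that those letters are not in the window.

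Zic transcripts were present almost throughout. All 4 members were detected (1 UMI or more) in 6100 cells, 87.3% of all, and 1 cell held none of them. Zic1 was detected in 99.9% of cells, Zic2 in 97.6%, Zic5 in 97.4% and Zic4 in 91.0%. Median depth was 10346 UMIs per cell in the e16 library and 15855 to 19970 in the RL libraries, with 706 to 2676 cells each. After every cell was thinned to 5000 UMIs (49 shallower cells left out), Zic1 was still detected in 95.2% of cells, Zic2 in 81.0%, Zic5 in 80.8% and Zic4 in 65.1%. With detection this broad, free RNA in the droplets has no clearly Zic-free cell type here to be read against, so the differences below were taken from levels. The libraries shared 6 cell barcodes, held by 12 cells.

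The cells were grouped into gates, sets of cells defined by which of the 6 genes were detected. Sox2 is a transcription factor of neural progenitors, Atoh1 the factor that specifies rhombic lip derivatives, Barhl1 a homeobox factor of the granule lineage, Eomes a T-box factor of unipolar brush cells, Lmx1a a LIM homeobox factor of roof plate and brush cells, and Mapt the microtubule protein tau of neurons. The Sox2-only gate (784 cells) had Sox2 and none of the other 5. The Sox2 and Lmx1a gate (135 cells) had both and none of the other 4. The Sox2 and Atoh1 gate (1371 cells) had both without Eomes or Lmx1a, and the Atoh1 gate (663 cells) had Atoh1 without Sox2, Eomes or Lmx1a. The Barhl1 and Mapt gate (113 cells) had both without Sox2, Atoh1, Eomes or Lmx1a. The Eomes gate (965 cells) had Eomes without Sox2, Atoh1 or Lmx1a, and the Eomes and Lmx1a gate (1554 cells) had both without Sox2 or Atoh1. With 37 cells that had Mapt without Sox2, Atoh1, Barhl1 or Eomes, these gates held 5622 cells, 80.5% of all.

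Marker lists followed the gates. Summed over 5 radial glia genes the level was 5333 to 8608 CPM across libraries in the Sox2-only gate and 106 to 520 CPM in the Atoh1 gate. Over 5 neuron genes (Mapt, Dcx, Tubb3, Stmn2, Gap43) it was 174 to 274 CPM in the Sox2-only gate and 9713 to 14288 CPM in the Barhl1 and Mapt gate. Mapt is itself a gate gene, so its part of that sum was set by the gates. Mapt alone was 0 CPM in the Sox2-only gate and 367 to 1170 CPM in the Barhl1 and Mapt gate. Meninges also express Zic genes, but the 7 of 8 meningeal markers in the table summed to 0 to 10.1 CPM in every gate and library. The 6 GABAergic lineage genes summed to 67.6 to 221 CPM in the Sox2-only gate and 4.03 to 20.7 CPM in the Atoh1 gate. Microglial, endothelial and red blood cell lists reached at most 38.6, 77.4 and 67.3 CPM in any gate and library, and an oligodendrocyte lineage list reached 33.1 CPM. The part of radial glia and GABAergic lineage cells in the results on the Sox2-only gate was not tested.

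Across the RL libraries Zic1 was lowest in the Atoh1 gate, at 497 ± 10.2 CPM (SD, n = 4), followed by the Sox2 and Atoh1 gate (551 ± 12.1, n = 4), the Sox2 and Lmx1a gate (684 ± 15.5, n = 3), the Sox2-only gate (756 ± 87.3, n = 4), the Barhl1 and Mapt gate (889 ± 435, n = 3) and the Eomes gate (911 ± 173, n = 3). The Eomes and Lmx1a gate was highest at 1263 ± 279 CPM (n = 3). Every Atoh1 library lay below every Sox2 and Atoh1 library, and these below every library of the next 2 gates. From there on ranges overlapped: the Sox2-only gate (654 to 862 CPM) overlapped the Sox2 and Lmx1a, Barhl1 and Mapt, and Eomes gates. The Eomes and Lmx1a gate (1004 to 1559 CPM) overlapped the Eomes gate (728 to 1072 CPM) and the Barhl1 and Mapt gate (576 to 1386 CPM).

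Zic2 ran from 231 ± 17.6 CPM in the Sox2 and Atoh1 gate and 241 ± 26.9 in the Atoh1 gate to 259 ± 14.6 in the Sox2-only gate and 278 ± 9.33 in the Sox2 and Lmx1a gate (SD, n = 4, 4, 4 and 3). It then stood at 446 ± 55.2, 526 ± 51.8 and 557 ± 116 CPM in the Barhl1 and Mapt, Eomes, and Eomes and Lmx1a gates (n = 3 each). Zic5 had the same 2 tiers, 251 ± 15.2 to 298 ± 20.6 CPM in the 4 gates with Sox2 or Atoh1 and 468 ± 32.8 to 553 ± 44.2 CPM in the other 3. For both genes every RL library of the lower tier lay below every RL library of the upper tier, while neighbouring gates within a tier overlapped. The 2 tiers hold for these gates only. Cells with both Atoh1 and Eomes but no Sox2, a gate added after values were seen, bridged them. There Zic2 was 358 ± 75.3 CPM (270 to 453) and Zic5 374 ± 72.3 CPM (286 to 462), overlapping both tiers (SD, n = 4).

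Zic4 did not follow those tiers. It stood at 123 ± 32.3 CPM in the Atoh1 gate, 138 ± 4.60 in the Sox2 and Atoh1 gate, 152 ± 75.2 in the Barhl1 and Mapt gate and 197 ± 13.99 in the Eomes gate (SD, n = 4, 4, 3 and 3). In the Sox2 and Lmx1a gate it was 226 ± 71.5 CPM and in the Sox2-only gate 251 ± 79.8, both overlapping the range of the Eomes gate, and the mean was highest in the Eomes and Lmx1a gate at 344 ± 89.1 CPM (n = 3, 4 and 3).

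**Figure D1:**
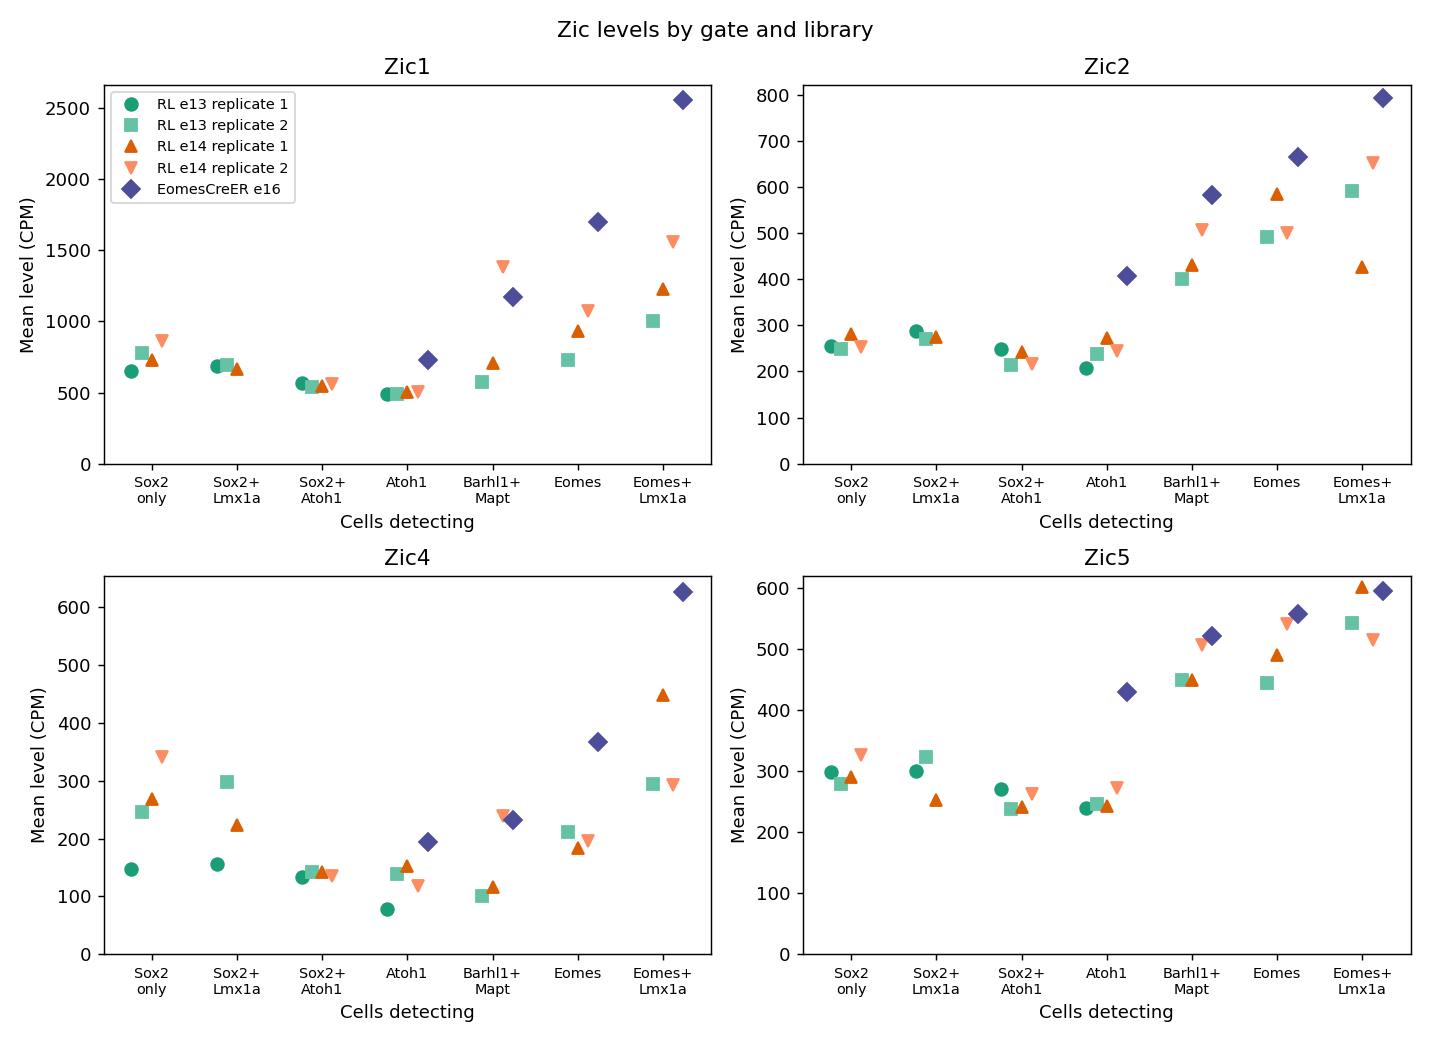
Mean level of each Zic gene (CPM, linear axis from 0) in cells of each gate, 1 symbol per library, for gates with 10 cells or more in that library. Among the gates drawn, Zic2 and Zic5 sit in a lower tier (4 gates on the left) and an upper tier in the RL libraries. Cells with both Atoh1 and Eomes, which overlap both tiers, are not drawn. Zic4 is as high in Sox2-only cells as in Eomes cells, and the e16 library (diamonds) lies highest for Zic1 and Zic4 in the gates with Eomes.

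The step from Sox2-only cells to Atoh1 cells was examined first. Zic1 and Zic4 were lower in the Atoh1 gate and Zic5 slightly lower, while Zic2 did not pass the test. Zic4 was 148, 246, 269 and 341 CPM in the Sox2-only gate of RL e13 replicates 1 and 2 and RL e14 replicates 1 and 2, and 79.1, 140, 153 and 119 CPM in their Atoh1 gates. It was lower in Atoh1 cells in 4 of 4 libraries, although the highest Atoh1 value (153 CPM) exceeded the lowest Sox2-only value (148 CPM). Its difference was -0.98 ± 0.13 on the log2(CPM + 5) scale (SE, limma adjusted p = 0.00098).

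Zic1 was 654, 781, 729 and 862 CPM in the Sox2-only gate, in the same library order, and 488, 489, 507 and 505 CPM in the Atoh1 gate. The 2 gates did not overlap, and Atoh1 cells lay in a narrow band in all 4 libraries. The difference was -0.59 ± 0.07 (SE, limma adjusted p = 0.00078).

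Zic5 differed by -0.25 ± 0.07 (limma adjusted p = 0.031), from 279 to 327 CPM in Sox2-only cells and from 240 to 273 CPM in Atoh1 cells. Zic2 differed by -0.11 ± 0.08 (limma adjusted p = 0.34; 95% interval -0.28 to 0.07) and was lower in 4 of 4 libraries. So 3 of 4 members were lower, against a background of 14.8% lower and 9.35% higher among the 8450 genes tested. The Zic5 call was lost in 6 of 15 alternatives, among them the fits without RL e13 replicate 2, RL e14 replicate 1 or RL e14 replicate 2 (-0.27 to -0.24) and median-ratio scaling (-0.19, limma adjusted p = 0.085).

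Thinned detection gave a view of Zic4 at equal depth. In the Sox2-only gate 41.4% (exact binomial 95% interval 35.1 to 47.9), 65.1% (59.7 to 70.2), 69.0% (59.6 to 77.4) and 74.4% (63.2 to 83.6) of cells held a Zic4 UMI at 5000 UMIs per cell, in the same library order. In the Atoh1 gate the shares were 16.7% (3.58 to 41.4, 18 cells), 42.1% (36.3 to 48.2), 50.3% (43.0 to 57.5) and 47.3% (38.9 to 55.7). Unthinned, they were 85.4% to 96.2% and 66.7% to 88.1%. The share was lower in Atoh1 cells in each library, and RL e13 replicate 1 was the lowest in both gates. These intervals cover counting error only.

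Cells with both Sox2 and Atoh1 already had the lower levels. Zic1 was 566, 540, 543 and 557 CPM there, in the same library order, and Zic4 was 133, 142, 142 and 135 CPM. For both genes every library of this gate lay below every library of the Sox2-only gate. The differences from Sox2-only cells were -0.45 ± 0.07 for Zic1 (SE, limma adjusted p = 0.020), -0.78 ± 0.17 for Zic4 (adjusted p = 0.035) and -0.23 ± 0.06 for Zic5 (adjusted p = 0.043). Zic2 did not pass the test (-0.17 ± 0.06, limma adjusted p = 0.12), but did without RL e13 replicate 1 (-0.21, limma adjusted p = 0.038). These 3 of 4 members were lower against a background of 8.4% lower, 4.77% higher and 13.2% in either direction among 8407 genes. Without RL e13 replicate 2, RL e14 replicate 1 or RL e14 replicate 2 none of the 3 was called (Zic1 -0.45 to -0.39, Zic4 -0.78 to -0.61, Zic5 -0.24 to -0.21), and without the first or second of these no gene of the table was called. All 3 calls held with the top 5% of cells by UMIs removed, a setting that does not identify doublets, and the part of doublets in this gate was not tested.

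Lmx1a detection within Sox2 cells came with no called difference in any member. The Sox2 and Lmx1a gate held 10 cells or more in 3 libraries (71, 42 and 16 cells in RL e13 replicates 1 and 2 and RL e14 replicate 1). Zic1 was 687, 697 and 667 CPM there and Zic4 was 155, 298 and 224 CPM, within or beside the Sox2-only ranges. The differences were -0.07 for Zic1 (95% interval -0.22 to 0.08), 0.09 for Zic2 (-0.11 to 0.28), 0.03 for Zic4 (-0.21 to 0.27) and 0.01 for Zic5 (-0.20 to 0.22), with limma adjusted p from 0.78 to 0.99. A background of 2.04% of 8395 genes was called in either direction, 0.929% higher and 1.11% lower. The roof plate and choroid plexus list (7 of 8 genes in the table, Lmx1a among them) summed to 390 to 559 CPM in this gate and 34.3 to 132 CPM in the Sox2-only gate, and Ttr, the defining choroid plexus gene, was at 0 CPM in it in all 3 libraries.

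The step from Atoh1 cells to cells with Barhl1 and Mapt brought Zic2 and Zic5 up and left Zic4 without a call. Barhl1 was 437 ± 45.6 CPM in the later gate and 346 ± 63.2 CPM in the Eomes gate of the RL libraries (SD, n = 3 each). A list of 5 granule progenitor genes, Barhl1 among them, summed to 616 to 1022 CPM and 721 to 1117 CPM in these gates across libraries. These values do not set the later gate apart as granule lineage cells. The later gate held 17, 26 and 11 cells in RL e13 replicate 2 and RL e14 replicates 1 and 2, and RL e13 replicate 1 had none. Zic5 was 246, 243 and 273 CPM in the Atoh1 gate and 449, 448 and 506 CPM in the Barhl1 and Mapt gate. Zic2 was 237, 273 and 245 CPM and then 400, 431 and 507 CPM. Neither gene's gates overlapped, and both rose in 3 of 3 libraries, by 0.87 ± 0.14 for Zic5 (SE, limma adjusted p = 0.00044) and 0.81 ± 0.14 for Zic2 (adjusted p = 0.0011).

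Zic1 was 489, 507 and 505 CPM in the Atoh1 gate and 576, 707 and 1386 CPM in the Barhl1 and Mapt gate. It rose by 0.72 ± 0.18 (limma adjusted p = 0.012), but the highest value came from the library with 11 cells: without RL e14 replicate 2 the difference was 0.36 (limma adjusted p = 0.105). Zic4 was 140, 153 and 119 CPM and then 101, 115 and 238 CPM. It was lower in 2 libraries and higher in RL e14 replicate 2, a difference of 0.05 ± 0.23 (95% interval -0.45 to 0.54; limma adjusted p = 0.93). Without that library it was -0.42. So 3 of 4 members were higher, against a background of 8.86% higher and 7.21% lower among 8261 genes.

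All 4 members were higher in the Eomes gate than in the Atoh1 gate. This comparison used RL e13 replicate 2, both RL e14 libraries and the e16 library. Zic2 was 237, 273, 245 and 408 CPM in Atoh1 cells and 492, 586, 501 and 666 CPM in Eomes cells, in that library order. Zic1 was 489, 507, 505 and 726 CPM and then 728, 932, 1072 and 1697 CPM. For both genes the gates did not overlap, and the e16 library was highest in each gate.

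Zic5 was 246, 243, 273 and 430 CPM in Atoh1 cells and 443, 489, 540 and 558 CPM in Eomes cells, without overlap. Zic4 was 140, 153, 119 and 193 CPM and then 211, 184, 195 and 367 CPM, where the e16 Atoh1 value exceeded the Eomes value of RL e14 replicate 1. All 4 members rose in 4 of 4 libraries. The differences were 0.96 ± 0.08 for Zic2 (SE, limma adjusted p = 3.2e-05), 0.94 ± 0.10 for Zic1 (adjusted p = 0.00010), 0.79 ± 0.11 for Zic5 (adjusted p = 0.00028) and 0.61 ± 0.11 for Zic4 (adjusted p = 0.0014). In this comparison 25.5% of 8285 genes were higher, 21.7% were lower and 47.2% were called in either direction, so a call was common among all genes. In the libraries compared the summed neuron list was 2450 to 5395 CPM in the Atoh1 gate and 11291 to 13692 CPM in the Eomes gate. Its part in the result was not tested.

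Among Eomes cells, those with Lmx1a had more Zic1 and Zic4. Zic4 was 211, 184, 195 and 367 CPM in the Eomes gate and 294, 447, 292 and 626 CPM in the Eomes and Lmx1a gate, in the same library order. Zic1 was 728, 932, 1072 and 1697 CPM and then 1004, 1225, 1559 and 2560 CPM. Both were higher in 4 of 4 libraries while their ranges overlapped between libraries. The differences were 0.77 ± 0.13 for Zic4 (SE, limma adjusted p = 0.026) and 0.50 ± 0.07 for Zic1 (adjusted p = 0.013).

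Zic2 (0.11 ± 0.13, limma adjusted p = 0.82) and Zic5 (0.15 ± 0.09, adjusted p = 0.63) did not pass the test, and each was higher in 3 of 4 libraries. The 2 called members stand against 0.493% of 8117 genes called higher and 1.2% in either direction. The RL libraries held 16, 14 and 21 cells of the later gate. Both calls were lost without the e16 library (0.46 for Zic1 and 0.77 for Zic4, limma adjusted p = 0.061 and 0.062), without RL e14 replicate 2 (0.48 and 0.83, limma adjusted p = 0.11 and 0.10) and after thinning to 5000 UMIs (0.42 and 0.37, limma adjusted p = 0.19 and 0.70). Without RL e14 replicate 1 the Zic4 difference was 0.60 (limma adjusted p = 0.056). The median depth of the Eomes and Lmx1a gate was 9968 UMIs, against 12348 in the Eomes gate.

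**Figure D2:**
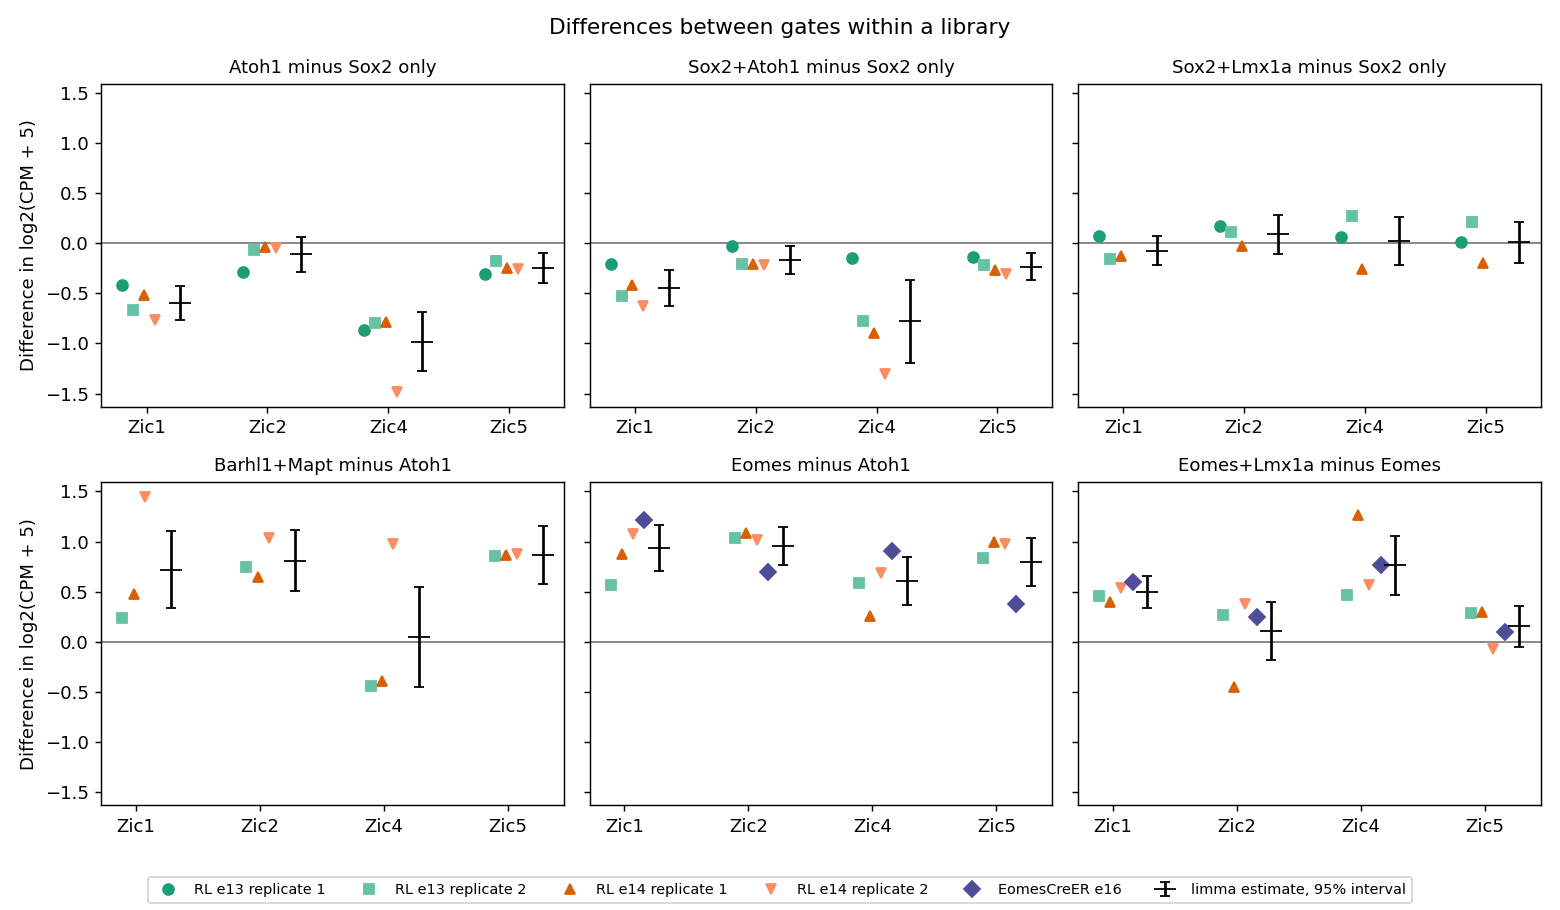
Difference in log2(CPM + 5) between 2 gates within a library for each Zic gene, 1 panel per comparison, with symbols for libraries and a black bar for the limma estimate and its 95% interval. All libraries lie below 0 in the first 2 panels and above 0 in the Eomes panel, Zic4 splits around 0 in the Barhl1 and Mapt panel, and Zic1 and Zic4 lie above 0 in the last panel.

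The members were compared with each other inside each comparison. In the step from Sox2-only to Atoh1 cells the difference of Zic2 minus that of Zic4 was 0.88 on the log2 scale and that of Zic4 minus that of Zic5 was -0.74, each with 1 sign in 4 of 4 libraries. In the step to Barhl1 and Mapt cells Zic2 minus Zic4 was 0.76, above 0 in 3 of 3 libraries. In the step from Eomes to Eomes and Lmx1a cells Zic2 minus Zic4 was -0.66 and Zic4 minus Zic5 was 0.61, each with 1 sign in 4 of 4 libraries. None of the 36 differences passed an exact two-sided sign-flip permutation test, which can go no lower than p = 0.12 with 4 libraries (adjusted p = 0.26 over the 36) or 0.25 with 3. The members' unequal changes are therefore a description.

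Over the 29 profiles (1 gate in 1 library, 10 cells or more) the correlation differed in strength between the pairs of members. Pearson's r of log2(CPM + 5) was 0.94 for Zic2 and Zic5, neighbours on chromosome 14, and 0.82 for Zic1 and Zic4, neighbours on chromosome 9. It was 0.86 for Zic1 and Zic2, 0.84 for Zic1 and Zic5, and lower for Zic4 with Zic2 (0.57) and with Zic5 (0.58). Over the 24 RL profiles alone the last 2 were 0.40 and 0.47 and Zic2 with Zic5 was 0.93. Zic1 there stood at 0.79 with Zic2, 0.82 with Zic5 and 0.73 with its neighbour Zic4. Profiles of 1 library share that library, and no test was made. Between single cells of 1 gate and library the medians were 0.02 to 0.12 for the 6 pairs over 18 sets of cells. Single sets ran from -0.18 (Zic4 with Zic5) to 0.37 (Zic1 with Zic4), and every pair had sets of both signs. The medians were too weak to be read as a relation.

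**Figure D3:**
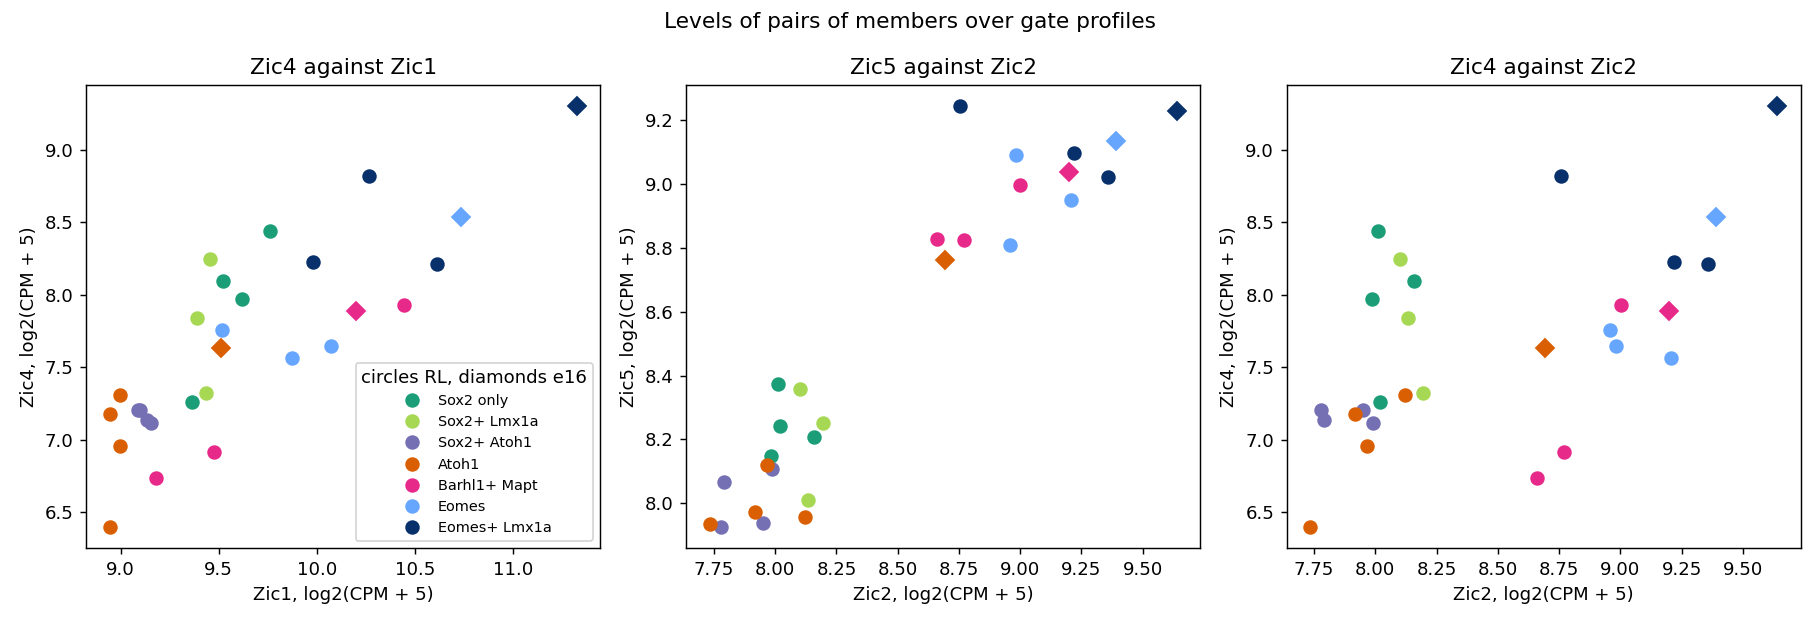
Level of 1 Zic gene against another, both as log2(CPM + 5), 1 point per gate and library (circles RL libraries, diamonds the e16 library, colours gates; the 29 cells with Mapt alone at e16 are not drawn). Zic2 and Zic5 lie along 1 line (r = 0.94). Zic4 against Zic2 (r = 0.57) sets Sox2-only and Sox2 and Lmx1a cells apart from Barhl1 and Mapt cells, which are higher in Zic2. Their Zic4 ranges overlap, at 148 to 341, 155 to 298 and 101 to 238 CPM in that order.

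Of the 8543 genes compared over those profiles, the most like Zic5 were Aplp1 (r = 0.97), an amyloid precursor family protein of neurons, Gnao1 (0.96), a G protein subunit, and Tubb2a (0.96), a tubulin. The most like Zic2 were Ankrd12 (0.97), Gpr162 (0.96) and Aplp1 (0.96). For Zic1 they were RP23-291B1.2 (0.94), a transcript named by its clone, Rasa3 (0.92) and Clcn3 (0.92), a chloride transporter gene. Zic4 had looser neighbours: Lsamp (0.85), a neuronal cell adhesion gene, Sorbs2 (0.84) and Emc2 (0.83). The most opposed were Eef1b2 (-0.94) for Zic1 and Cnbp (-0.95) for Zic5, Hspe1 (-0.95) for Zic2 and Pbx3 (-0.84), a homeobox factor, for Zic4.

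The gate genes were also read singly, with all cells of a library split by 1 gene. Cells with Atoh1 had less of every member in 5 of 5 libraries: the differences on the log2 scale had medians of -0.46 for Zic1, -0.28 for Zic2, -0.50 for Zic4 and -0.25 for Zic5. Cells with Lmx1a had more of every member in 5 of 5 libraries, with medians of 0.47, 0.32, 0.62 and 0.34. Cells with Eomes had more of all 4 in 4 of 5 libraries, the exception being RL e13 replicate 1 at -0.28 to -0.01. Cells with Mapt had more Zic1 and Zic2 in 5 of 5 libraries, more Zic5 in 4 and more Zic4 in 3. Cells with Sox2 had more Zic4 in 4 of 5 libraries (median 0.18) and more Zic1 in 2 (median -0.10), and less Zic2 and Zic5 in 4 of 5 (medians -0.45 and -0.26). Cells with Barhl1 had less Zic1 and Zic4 in 4 of 5 libraries (medians -0.26 and -0.63) and more Zic2 and Zic5 in 4 of 5 (medians 0.13 and 0.04). A cell with 1 of these genes often has another, so these splits are not separate results.

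Cells of a gate were then split by Mapt. The gate of cells with both Atoh1 and Eomes but no Sox2, chosen after values were seen, was included here. In the e16 library Zic1 was 1904 CPM in such cells with Mapt and 911 CPM in those without (202 and 40 cells). In RL e13 replicate 2 and RL e14 replicates 1 and 2 it was 662, 771 and 954 CPM with Mapt and 563, 645 and 692 CPM without. For Zic1 the cells with Mapt were higher in all 4 libraries, and the gap was widest at e16. Zic2 and Zic5 were also higher with Mapt in 4 of 4 (0.07 to 0.78 and 0.03 to 0.49 on the log2 scale), and Zic4 in 3 of 4, with -0.49 in RL e14 replicate 1.

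Within the Eomes gate of the e16 library Zic1 was 1748 CPM with Mapt and 950 CPM without (686 and 47 cells), Zic2 677 and 502 CPM, Zic4 374 and 263 CPM, and Zic5 558 and 551 CPM. RL e14 replicate 2, the other library with 10 cells on each side, gave 1137 and 621 CPM for Zic1 and 542 and 527 CPM for Zic5. Among Eomes and Lmx1a cells at e16 Zic1 was 2579 CPM with Mapt and 1392 CPM without (1479 and 24 cells), and Zic5 went the other way, 593 and 701 CPM. Within the Atoh1 gate of the RL libraries the split moved Zic1 by -0.22 to 0.04 on the log2 scale, with both signs present, and at e16 Zic1 was 824 CPM with Mapt and 612 CPM without (14 and 12 cells). These are single libraries or description over few cells, with no test.

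**Figure D4:**
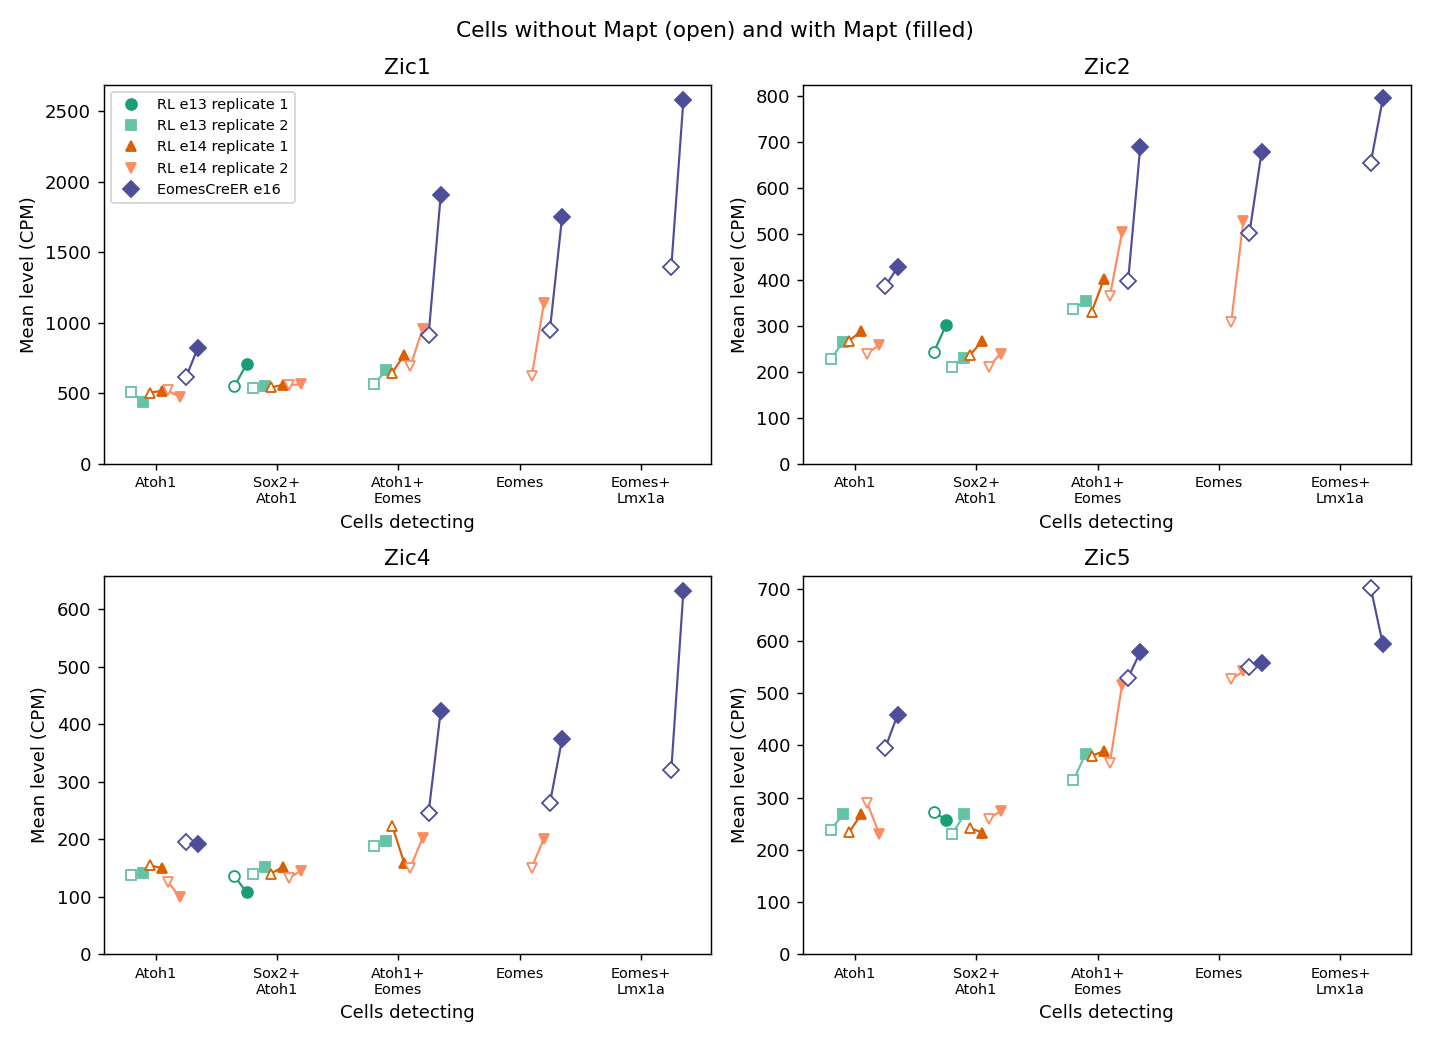
Mean level of each Zic gene (CPM, from 0) in cells without Mapt (open) and with Mapt (filled), joined within a library, for gates with 10 cells or more on each side. Zic1 is higher with Mapt in each library of the gates with Eomes, most at e16 (911 and 1904 CPM in Atoh1 and Eomes cells) and by 0.23 to 0.46 on the log2 scale in the RL libraries of that gate, while in the Atoh1 gate of the RL libraries it moves by -0.22 to 0.04.

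The e16 library, 1 library with no replicate, was highest for most members in the gates it shared with the RL libraries. In the Barhl1 and Mapt gate (59 cells) it was highest for Zic2 (583 CPM) and Zic5 (521 CPM), but Zic1 at 1171 CPM and Zic4 at 232 CPM lay below RL e14 replicate 2 (1386 and 238 CPM). In its Eomes and Lmx1a gate (1503 cells) Zic1 was 2560 CPM, against 1004 to 1559 CPM in 3 RL libraries, and Zic4 was 626 CPM against 292 to 447 CPM. Zic2 was 793 CPM against 427 to 652 CPM, and Zic5 at 595 CPM lay inside the RL range of 515 to 601 CPM. In its Atoh1 gate (26 cells) all 4 members stood above every RL library, Zic1 at 726 CPM against 488 to 507 CPM and Zic5 at 430 CPM against 240 to 273 CPM. The neuron list summed to 5395 CPM in that e16 gate against 1525 to 2821 CPM in the RL libraries, and Mapt alone was 170 CPM against 21.6 to 33.6 CPM; their part was not tested. Age, title and library cannot be told apart for these values.

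Between e13 and e14, grouped by title, no member differed by the test. Zic4 in the Sox2-only gate was 148 and 246 CPM at e13 and 269 and 341 CPM at e14, without overlap, a difference of 0.65 ± 0.25 (SE, limma adjusted p = 0.65). In the Atoh1 gate it was 79.1 and 140 CPM at e13 and 153 and 119 CPM at e14, with overlap (0.34 ± 0.27, limma adjusted p = 0.59). Zic1, Zic2 and Zic5 differed by 0.08 to 0.15 in the Sox2-only gate and by 0.05 to 0.22 in the Atoh1 gate. By limma 0% of 8392 and 0% of 8104 genes were called in these 2 gates, with 622 and 946 at an unadjusted p under 0.05. With RL e13 replicate 2 counted as e14, as its age tag reads, the Zic4 difference in the Atoh1 gate was 0.75. That fit sets 1 library of 18 cells against 3 and assumes that this library varies like the rest. Without RL e13 replicate 2 the difference was 0.73, and the library of 18 cells again stood alone at e13. Whether the steps from Sox2-only to Atoh1 cells or to Sox2 and Atoh1 cells differed between the ages was tested with an interaction term, and no gene was called (limma adjusted p = 0.79 to 0.99 for the members).

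Other genes of the pathways that Zic factors are known to act with were read in the same fits. Among GLI and GLIS relatives 3 of 6 were tested in the step from Sox2-only to Atoh1 cells and 2 were lower: Gli3, mostly a repressor of hedgehog targets, by -1.26 ± 0.13 (SE, limma adjusted p = 0.00029) and Glis3 by -2.52 ± 0.24 (adjusted p = 0.00022). The median of the 3 was -1.26, beside -0.07 over all genes. Of all genes tested in this step 14.8% were lower and 9.35% higher. Of 8 hedgehog genes tested 1 was lower, the coreceptor gene Cdon (-1.91 ± 0.20), and the median was 0.09.

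All 4 genes tested in the list of Zic partners were lower: Msx2 (-1.94), Msx1 (-1.53), Mdfi, which encodes an inhibitor of myogenic factors that can bind Zic proteins (-1.49), and Pax3 (-1.37), with a median of -1.51. The share over all genes in this step was 14.8% lower and 9.35% higher. Pax3 went from 351 ± 15.5 CPM in Sox2-only cells to 133 ± 14.6 CPM in Atoh1 cells (SD, n = 4). Of 9 Wnt genes 2 were higher, Sp5 by 2.97 and the pathway inhibitor Nkd1 by 1.56, and 5 were lower, among them Wnt1 (-2.29), Tcf7l2 (-1.54), Tcf7l1 (-1.30) and Axin2 (-1.16), with a median of -0.73. In cells with both Sox2 and Atoh1 1 of 3, 0 of 8, 3 of 4 and 3 of 9 genes of the 4 lists were lower: Mdfi (-1.02), Tcf7l2 (-0.86), Msx1 (-0.80), Znrf3 (-0.67), Axin2 (-0.55), Pax3 (-0.51) and Gli3 (-0.49). Sp5 (2.58), Nkd1 (1.70) and Mycn (0.37) were higher (medians -0.49, 0.11, -0.80 and -0.51, beside -0.03 over all genes). Of all genes tested in that comparison 8.4% were lower and 4.77% higher.

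In Sox2 and Lmx1a cells, where no Zic member was called, Wnt1 (2.03), Msx1 (1.80), Wnt3a (1.77), Cdon (1.48), Msx2 (1.21) and Glis3 (1.10) were higher and Ccnd1 was lower (-0.99). The list medians were 0.25, 0.07, 0.71 and 0.07, beside -0.0042 over all genes, of which 0.929% were higher and 1.11% lower. Msx1 and Wnt3a also stand in the roof plate list. Wnt1 went from 35.0 ± 12.5 CPM to 157 ± 40.8 CPM (SD, n = 3).

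In the Barhl1 and Mapt gate 10 genes of the lists were lower than in Atoh1 cells and none was higher, 1 of 2 GLI and GLIS relatives, 3 of 9 hedgehog genes, 1 partner of 1 and 5 of 7 Wnt genes. They were Gli3 (-1.50), then Ccnd1 (-1.29), Gas1 (-1.04) and Mycn (-0.86), then Pax3 (-1.48), and the Wnt genes Nkd1 (-2.04), Sp5 (-1.42), Axin2 (-1.12), Ctnnb1 (-1.04) and Lef1 (-1.02). The medians were -1.25, -0.23, -1.48 and -1.12, beside -0.0043 over all genes, of which 7.21% were lower and 8.86% higher. In Eomes cells the counts were 2 of 2, 6 of 8, 1 of 1 and 5 of 7, all lower than in Atoh1 cells, with medians of -1.50, -1.14, -2.62 and -0.98 beside 0.03. A call was common there, with 21.7% of all genes lower and 25.5% higher. In this comparison, where all 4 Zic members rose, the lower genes included Gli3 (-1.83) and Gli2 (-1.18), the cell cycle gene Ccnd1 (-2.80), the hedgehog transducer gene Smo (-1.37), Mycn (-1.25) and the coreceptor gene Boc (-1.23), Pax3 (-2.62), and Tcf7l2 (-1.70), Nkd1 (-1.44), Sp5 (-0.98) and Ctnnb1 (-0.98). Between Eomes and Eomes and Lmx1a cells 2 genes were called, both higher: Gas1, a coreceptor gene (1.16 ± 0.15, limma adjusted p = 0.0075) and Axin2, a Wnt target (0.94 ± 0.17, adjusted p = 0.033). The medians there were 0.19, -0.52, 0.42 and 0.20 over 1, 6, 1 and 7 genes tested, beside -0.04 over all genes. Of all genes tested 0.493% were higher and 0.702% lower.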

How the data were processed

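Single-cell libraries from embryonic mouse cerebellum were analysed from the authors' deposited table of natural log values, ln(1 + 10000 × UMIs of the gene / UMIs of the cell), which were inverted to UMIs. All 29540669 values above 0 came out whole within 0.01 (100% of them; largest deviation 0.000569). Cell Ranger and the mm10 build appear, with no further detail, per the submitters' processing notes, and the kits were 10x v3 and v3.1 per the labels. No source used here gives the filters on cells and genes, any doublet removal or the strand setting. Doublets were not called; removing the top 5% of cells by UMIs was an alternative.

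A gate's level in a library is the mean over its cells of each cell's CPM, for gates with 10 cells or more. Gates were compared with limma 3.58.1 (R 4.3.3), a moderated test with trend on log2(CPM + 5) with library as a block, since both gates come from the same libraries. Genes averaging at least 10 CPM were tested, p-values were adjusted by Benjamini-Hochberg over all of them, and 0.05 was the threshold. The 6 gate genes were not tested. The natural log and the scale of 10000 were settled from the values. The script was tested on simulated data with 200 changed genes.

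The members and lists were chosen with earlier results of these data known. Named genes are the members, the gate genes, the 3 most like and 1 most opposed genes per member, and called genes of the 4 lists, up to 4 per list, direction and comparison by size; a few others are named to complete a count. The alternatives were other pseudocounts (1 and 20), filters, scalings, detection at 2 UMIs, thinning, 20 cells, no block, and each library left out.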

Additional observations from a re-analysis of the deposited data

Results flagged for a closer look

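In 3 splits of all cells by 1 gate gene, the e16 library went 1 way and every RL library the other. The difference between the groups was not tested, and the e16 group is 1 library. Cells with Barhl1 had more Zic1 than cells without it at e16 (2261 and 1679 CPM, a log2 difference of 0.43), while the RL libraries stood at -0.44 to -0.25. For Zic4 the same split gave 0.56 at e16 (543 and 368 CPM) and -1.19 to -0.32 in the RL libraries. Cells with Sox2 had less Zic4 at e16 (371 and 523 CPM, a log2 difference of -0.49, with 23 cells that had Sox2), and the RL libraries stood at 0.03 to 0.27.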

How the results depend on the processing

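Of 456 member results under alternatives, 411 kept their side of the threshold, 42 lost a call, 3 gained one (Zic2 in Sox2 and Atoh1 cells without RL e13 replicate 1, and Zic4 between ages in Atoh1 cells by age tag or without RL e13 replicate 2) and 0 reversed a call; 6 that were not called changed sign. The cause was not tested. Adjusted p-values are limma's. From Sox2-only to Atoh1 cells, Zic5 was -0.19 with median-ratio scaling (adjusted p = 0.085), -0.23 thinned (0.060) and -0.25 with no replicate block (0.092); with 1 library left out it was -0.27 to -0.23, and 448 to 990 genes were higher and 703 to 1562 lower. From Sox2-only to Sox2 and Atoh1 cells, with no filter Zic4 was -0.78 (0.054) and Zic5 -0.23 (0.056). Zic5 there was -0.19 with median-ratio scaling (0.072), -0.23 from summed UMIs (0.055), -0.24 with detection at 2 UMIs (0.056), -0.18 thinned (0.26) and -0.23 with no replicate block (0.12). Thinning left 461 genes lower (706 in the fit reported) and no replicate block 237 higher (401). With 1 library left out 0 to 825 genes were higher and 0 to 1259 lower, Zic1 was -0.52 to -0.39, Zic2 -0.21 to -0.15, Zic4 -0.99 to -0.61 and Zic5 -0.27 to -0.21. In Sox2 and Lmx1a cells, against 78 higher and 93 lower, genes higher and lower were 22 and 20 with no filter, 35 and 39 thinned, 145 and 147 with 20 cells, and 2 and 1 with no replicate block; left-out libraries gave 42 to 180 and 50 to 209. Leaving out 3 cells with 3 or more Ttr UMIs, chosen after seeing the data, left the members' values as they were. Ttr was 0 CPM in the Sox2 and Lmx1a gate of the libraries used. This setting therefore could not change that gate and says nothing about choroid plexus cells in it.

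From Atoh1 to Barhl1 and Mapt cells, against 732 higher and 596 lower, the counts were 254 and 157 with no filter, with Zic1 at 0.72 (0.15), and 440 and 253 with no replicate block, with Zic1 at 0.72 (0.15); thinning left 971 lower. Left-out libraries gave 437 to 765 higher, 311 to 587 lower and Zic1 at 0.36 to 0.96; the setting with 20 cells was not run because 1 library remained. From Atoh1 to Eomes cells, against 2112 and 1797, thinning left 1140 and 997, and with no replicate block Zic4 was 0.61 (0.054). From Eomes to Eomes and Lmx1a cells, against 40 and 57, the counts were 0 and 0 with no filter (Zic1 0.50, 0.37; Zic4 0.77, 0.43), 4 and 7 thinned (Zic1 0.42, 0.19; Zic4 0.37, 0.70), 1 and 3 with 20 cells (Zic1 0.57, 0.053; Zic4 0.67, 0.12) and 0 and 0 with no replicate block (Zic1 0.50, 0.97; Zic4 0.77, 0.76). A pseudocount of 1 left 28 lower, detection at 2 UMIs gave Zic4 0.57 (0.12), and the RL libraries alone gave Zic1 0.46 (0.061) and Zic4 0.77 (0.062). Left-out libraries gave 9 to 35 higher, 13 to 45 lower, Zic1 0.46 to 0.53 and Zic4 0.60 to 0.86.

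For e14 against e13, 0 genes were called by title. By age tag 31 were higher and 6 lower in Sox2-only cells, and 703 and 689 in Atoh1 cells with Zic4 at 0.75 (0.022); with 20 cells the Atoh1 counts were 46 and 57. Left-out libraries gave 0 to 32 and 0 to 9 in Sox2-only cells, and 0 to 1082 and 0 to 1569 in Atoh1 cells with Zic4 at -0.046 to 0.73. A lone library in a group was assumed to vary like the rest. No paired analysis was possible because a replicate number does not tie an e13 to an e14 library. RL e13 replicate 1 had 18 Atoh1 cells, and the RL libraries 11 to 26 Barhl1 and Mapt cells and 14 to 21 Eomes and Lmx1a cells, which limits these values.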
